A study of Mus musculus with 5 samples.

Results

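Integrins and laminins are the receptors and the ligands that hold epithelial cells on their basement membrane. Their genes were followed in sorted mouse hair follicle stem cells with and without a genotype for induced loss of Polycomb repressive complex 1 (PRC1). Members were chosen by name from the deposited expression table: every protein-coding gene named as an integrin α or β subunit or as a laminin α, β or γ chain. The rule gave 37 of the 30840 features in the table, 26 integrin subunits (18 α and 8 β) and 11 laminin chains. PRC1 i2KO (3 libraries) carried K15-CrePR1, Ring1a-/- and Ring1bflox/flox, and Control (2 libraries) carried Ring1a-/- and Ring1bflox/flox without K15-CrePR1. Every animal thus lacked Ring1a, and every animal had 1% RU-486 applied topically for 10 days, begun at postnatal day 50. K15-CrePR1 is a Cre recombinase expressed from a keratin 15 promoter and switched on by RU-486, so recombination is directed at keratin 15-expressing cells, and the presence of the transgene and the Ring1b deletion cannot be told apart in this design. Cells that were EpCAM-positive, Sca1-negative, α6-integrin-high and CD34-positive were sorted at day 70, with 50000 cells used per library. The α6-integrin gate selected on the product of Itga6, a member, so the level of Itga6 in these cells is partly set by the sort.

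Integrins are dimers of an α and a β subunit that bind matrix outside the cell and the cytoskeleton inside it. Laminins are trimers of an α, a β and a γ chain that polymerise into the basement membrane. In skin, integrin α6β4 anchors basal keratinocytes to laminin-332 through hemidesmosomes, and integrins with the β1 subunit form focal adhesions. Bulge stem cells of the hair follicle sit on such a basement membrane, and high α6 is commonly used to isolate them. PRC1 places ubiquitin on histone H2A (H2AK119ub) through the products of Ring1 (Ring1a) or Rnf2 (Ring1b); the series concerns this mark in the quiescence of these cells.

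Total counts ranged from 25461650 to 43307694 in PRC1 i2KO and were 42916190 and 11626006 in Control. Gene-level counts of Rnf2 did not separate the groups, at 39.9, 33.1 and 36.4 CPM (library-scaled counts, with TMM factors) in PRC1 i2KO against 27.7 and 37.5 CPM in Control, and Ring1, null in both groups, kept 50 to 116 counts in PRC1 i2KO and 92 and 63 in Control. Both values pool deleted and retained exons and do not check the labels. Bulge markers were present in every library, with Krt15 at 3418 to 5076 CPM in PRC1 i2KO and 4270 and 4358 CPM in Control. Cd34, the other sort marker on the list, was at 298, 292 and 164 CPM in PRC1 i2KO against 477 and 326 CPM in Control (edgeR adjusted p = 0.422). Marker sums of other cells were unequal. The 13 fibroblast markers summed to 145 to 181 CPM in PRC1 i2KO and 82.7 and 79.6 CPM in Control. Fbln1 was the largest of them, at 61.8 to 96.7 CPM in PRC1 i2KO and 53.0 and 52.3 CPM in Control. Twist2 and Col3a1 were at 0 in Control, but Twist2 had counts in PRC1 i2KO 3 alone and Col3a1 in PRC1 i2KO 2 alone. The 11 immune markers summed to 12.2 to 21.4 CPM in PRC1 i2KO and 8.2 and 10.7 CPM in Control, with Coro1a at 0 in Control. The 11 Schwann cell and melanocyte markers summed to 108 to 148 CPM in PRC1 i2KO and 215 and 172 CPM in Control. Mitf gave most of this sum, at 102, 123 and 75.9 CPM in PRC1 i2KO and 196 and 153 CPM in Control. Of the 8 tested genes of the list, Mitf alone was lower in every PRC1 i2KO library, and 2, Ngfr and Mbp, were higher in every one. Tyrp1 and Sox10 were at 0 in Control, but Tyrp1 was also at 0 in PRC1 i2KO 1 and Sox10 in PRC1 i2KO 2. The interfollicular epidermis list summed to 7711 to 9687 CPM in PRC1 i2KO and 6534 and 6995 CPM in Control. Most of this sum came from the keratins Krt5 and Krt14. Krt5 was at 5077 to 6041 CPM in PRC1 i2KO and 4752 and 5088 CPM in Control, and Krt14 at 971 to 1431 CPM against 695 and 832 CPM. The 20 mitosis genes summed to 477, 116 and 1020 CPM in PRC1 i2KO 1, 2 and 3, against 64.7 and 112 CPM in Control 2 and 3.

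In TPM, which scales for assigned transcript length so that genes can be compared, Itga6, Lamb3 and Itgb4 had the highest means. They encode the hemidesmosomal receptor and a chain of its ligand. The order depends on the assigned lengths. Lama5 averaged 54.2 TPM and Lama3 51.1 TPM, but 111 and 306 CPM, with longest annotated transcripts of 11388 and 10548 bases. Itga6, the α6 subunit, was the highest member at 75.0, 120 and 92.1 TPM in PRC1 i2KO and 134 and 104 TPM in Control. It made up 48.2%, 51.0% and 57.0% of all integrin α TPM in PRC1 i2KO, against 44.6% and 50.9% in Control. Its partner Itgb4 was at 65.4, 80.5 and 57.5 TPM against 122 and 95.2 TPM, so that every PRC1 i2KO library was below both Control libraries. Lamb3, the β chain of laminin-332, was at 48.4, 91.5 and 61.5 TPM in PRC1 i2KO and 136 and 87.3 TPM in Control, and these ranges overlapped. Ordered by the mean over the 5 libraries, 11 members reached 20 TPM, among them Itga6, Lamb3, Itgb4, Lama5, Lama3, Itgb1, Itgav, Itga3, Itgb5 and Lamc1. For each pair of neighbours in the order named the ranges over the 5 libraries overlapped. At the other end, 17 of the 37 members averaged under 2 TPM, among them every leukocyte or platelet integrin in the table.

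**Figure D1:**
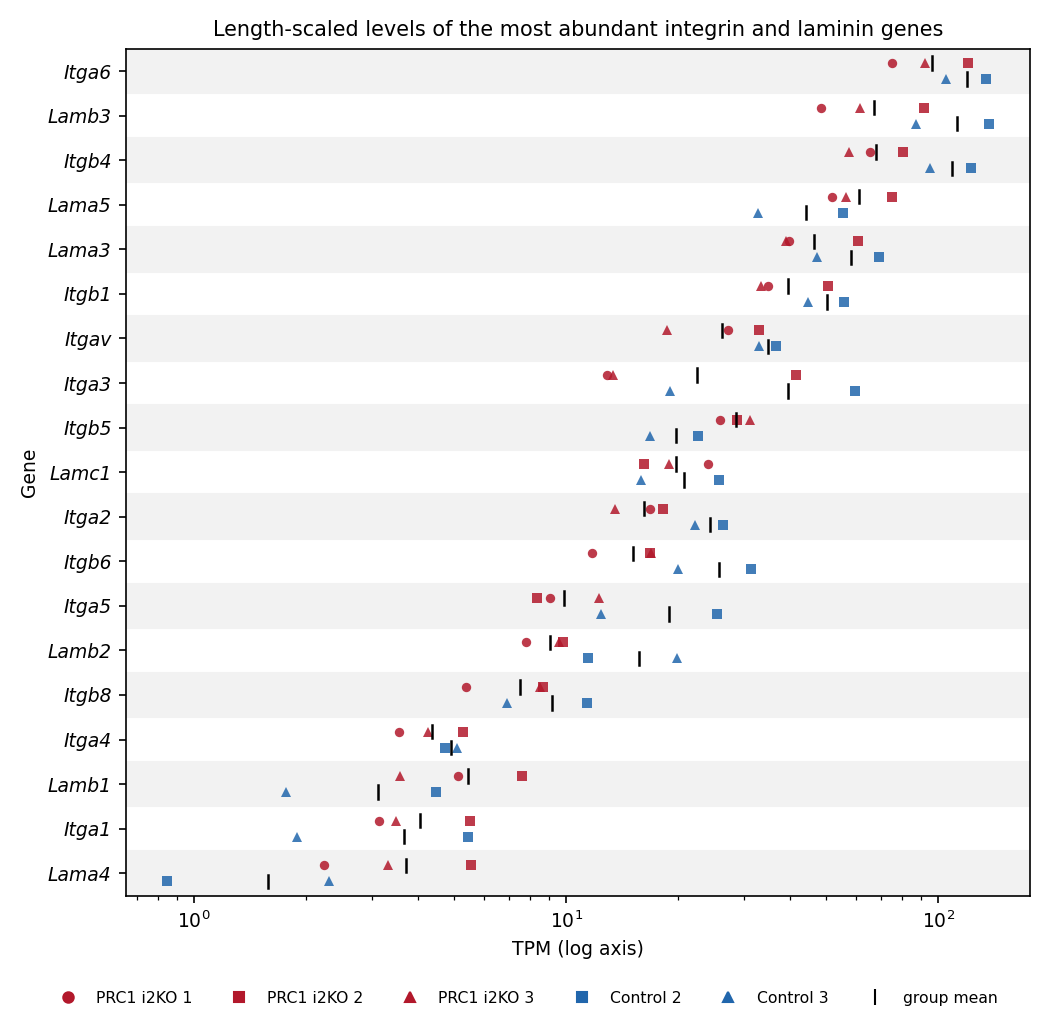
Level of 19 integrin and laminin genes with a mean of at least 2 TPM, on a log axis, with 1 point per library (red, PRC1 i2KO; blue, Control) and a black bar for each group's mean. Itga6, Lamb3 and Itgb4 stand highest in both groups, and Itgb5 is the single gene shown with all PRC1 i2KO points above both Control points.

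Most laminin TPM came from chains of epithelial basement membrane. Lama3 and Lama5 together gave 97.6%, 95.7% and 96.6% of laminin α TPM in PRC1 i2KO and 98.9% and 97.0% in Control. Lamb3 gave 78.9% to 84.0% of laminin β TPM in PRC1 i2KO and 89.5% and 80.2% in Control. Lama1, an early embryonic laminin chain, and Lama2, the α chain of muscle laminin, stayed below 1 TPM in every library.

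No integrin or laminin gene changed past the threshold. After a filter on low counts 30 members were tested (20 integrins and 10 laminins), and 0 were higher and 0 lower at an edgeR adjusted p under 0.05, where 0.126% of all 22181 tested genes were higher and 0.0% lower. At an unadjusted p under 0.05 the members also gave 0 and 0, against 7.43% of all genes higher and 3.51% lower. The smallest unadjusted p was 0.0603 and the smallest adjusted p 0.483. DESeq2 called 0 of the 28 members to which it gave an adjusted p (smallest 0.143), where it called 3.57% of all genes higher and 0.786% lower. The median log2 fold change was 0.02 over the 30 tested members and 0.01 over all tested genes, with 15 members positive and 15 negative. Because the 7 untested members were nearly absent, these counts speak only for members with reads.

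The data bound the size of a change for most abundant members. For the 19 members with a mean of at least 10 CPM, log2 fold changes lay between -0.55 and 0.53, and standard errors reached 0.35. The 95% interval lay inside a 2-fold change either way for 15 of these 19 (78.9%), and for 54.9% of the 8922 tested genes at that level. The median absolute log2 fold change was 0.26 for these members and 0.28 for all such genes. With 3 and 2 libraries, smaller changes were not detectable, and changes larger than 2-fold could also miss the threshold. Among genes of the lists below, Icam1 had a log2 fold change of 1.94 (edgeR adjusted p = 0.209) and Krtdap 1.44 (0.232). Smoc2, at 2.76, was called (0.0176). A p past the threshold was not reached for any member.

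**Figure D2:**
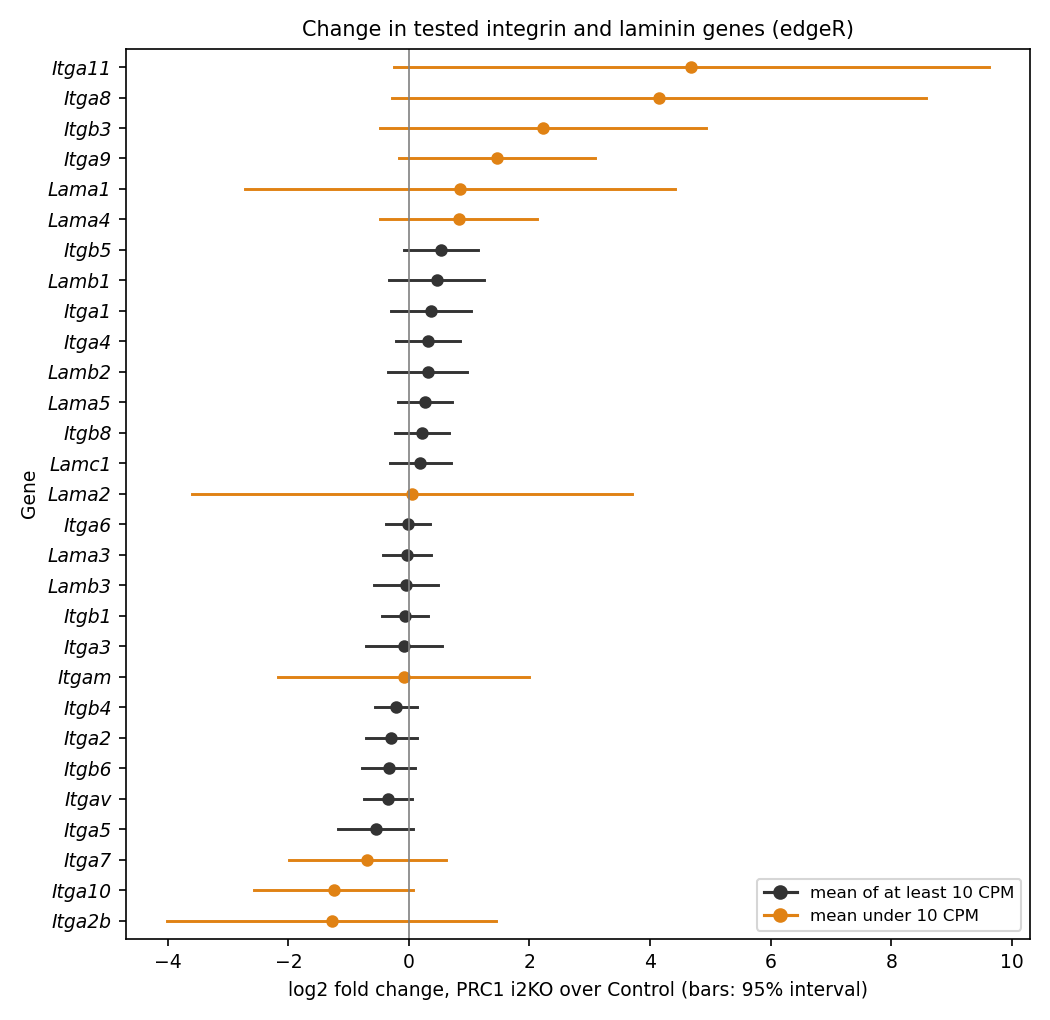
Log2 fold change (PRC1 i2KO over Control) of 29 tested members, with 95% intervals from the edgeR fit; black marks a mean of at least 10 CPM over the 5 libraries and orange a lower mean. Every interval includes 0, and those of most, but not all, members marked black lie inside a 2-fold change either way. The far points of Itga11 and Itga8 rest on 1 and 7 Control counts.

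No laminin-binding integrin subunit differed past the threshold. Itga6 was at 285, 345 and 306 CPM in PRC1 i2KO and 310 and 321 CPM in Control, with overlapping ranges and a log2 fold change of -0.02 ± 0.16 (SE; 95% interval -0.38 to 0.35; edgeR adjusted p = 0.984). Itgb4, whose product pairs with α6 alone, was at 442, 443 and 384 CPM in PRC1 i2KO and 504 and 479 CPM in Control. All PRC1 i2KO libraries were thus lower for Itgb4, by a log2 fold change of -0.22 ± 0.15 (interval -0.56 to 0.13, edgeR adjusted p = 0.667). Itga3, the α subunit of the laminin receptor α3β1, was at 78.1, 123 and 64.8 CPM in PRC1 i2KO and 99.8 and 87.9 CPM in Control (log2 fold change -0.08 ± 0.28, edgeR adjusted p = 0.952). PRC1 i2KO 2 was the highest library for Itga3 and PRC1 i2KO 3 the lowest. Itgb1, the subunit shared by the collagen, laminin and fibronectin receptors, was at 171, 181 and 152 CPM in PRC1 i2KO and 169 and 184 CPM in Control, a log2 fold change of -0.07 ± 0.17 (interval -0.45 to 0.32). The other laminin-binding α subunit, Itga7, known mainly from muscle, was at 2.48 to 4.14 CPM in PRC1 i2KO and 5.50 and 4.44 CPM in Control, lower in every PRC1 i2KO library (edgeR adjusted p = 0.727).

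Members of the αv family lay on both sides of Control. Itgav, the shared α subunit, was at 113, 133 and 115 CPM in PRC1 i2KO and 145 and 162 CPM in Control, with all PRC1 i2KO libraries lower (log2 fold change -0.35 ± 0.18, interval -0.75 to 0.05, edgeR adjusted p = 0.517). Itgb6, the partner in the epithelial activator of TGF-β, was at 65.8, 77.1 and 83.8 CPM in PRC1 i2KO and 98.3 and 92.1 CPM in Control, again all lower (log2 fold change -0.33 ± 0.19, edgeR adjusted p = 0.589). Itgb5, the partner in a vitronectin receptor, was at 30.6, 27.8 and 40.0 CPM in PRC1 i2KO and 21.01 and 24.4 CPM in Control, all higher (log2 fold change 0.53 ± 0.27, interval -0.08 to 1.15, edgeR adjusted p = 0.530). Itgb8, which also serves TGF-β activation, was at 57.4, 59.8 and 64.3 CPM in PRC1 i2KO against 52.6 and 51.7 CPM in Control. None of these differences passed the test. Itga5, the α subunit of the classical fibronectin receptor, was at 29.2, 22.1 and 36.9 CPM in PRC1 i2KO and 45.6 and 40.4 CPM in Control, and was the abundant member with the lowest log2 fold change, -0.55 ± 0.27 (edgeR adjusted p = 0.514).

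Groups that do not overlap were about as frequent among members as elsewhere. Every PRC1 i2KO library was above both Control libraries in CPM for 5 of the 30 tested members (Itga4, Itga9, Itgb5, Itgb8 and Lama5), and below both for 6 (Itga5, Itga7, Itga10, Itgav, Itgb4 and Itgb6). These orders were shown by 14.6% and 15.3% of all tested genes. In TPM the counts were 1 (Itgb5) and 8, against 7.01% and 23.0% of all genes. Of the 6 members lower in CPM, Itga5, Itga7, Itga10, Itgav, Itgb4 and Itgb6 were all lower in TPM too, while of the 5 higher ones only Itgb5 was also higher. Itga2 and Lamb2 were lower in every PRC1 i2KO library in TPM and overlapped in CPM. On the log2(TPM + 1) scale the median of all tested genes was itself -0.19, and the median member lay 0.11 below that, at -0.31.

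Collagen-binding and α4 and α9 subunits showed no called change. Itga2, the keratinocyte collagen receptor subunit, was at 156, 132 and 118 CPM in PRC1 i2KO and 155 and 176 CPM in Control. PRC1 i2KO 1 lay within the Control range for Itga2, and the log2 fold change was -0.29 ± 0.19 (edgeR adjusted p = 0.631). Itga1, another collagen receptor subunit, was at 31.9 to 43.5 CPM in PRC1 i2KO and 34.3 and 21.3 CPM in Control. Itga4, whose product binds fibronectin and VCAM1, was at 44.2, 49.5 and 47.8 CPM in PRC1 i2KO and 32.5 and 43.5 CPM in Control (log2 fold change 0.32 ± 0.23). The related Itga9 was scarce and higher in every PRC1 i2KO library, at 3.12, 3.43 and 2.44 CPM against 0.91 and 1.27 CPM in Control (log2 fold change 1.46 ± 0.72, edgeR adjusted p = 0.507). In TPM the order of Itga9 did not hold, with 2.71, 1.31 and 1.14 TPM in PRC1 i2KO against 2.17 and 2.26 TPM in Control. Itga10, a collagen receptor subunit known from cartilage, was at 2.57, 2.10 and 2.82 CPM in PRC1 i2KO and 7.74 and 4.05 CPM in Control (log2 fold change -1.25 ± 0.58, edgeR adjusted p = 0.484).

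Lama3 and Lamb3, chains of laminin-332, did not differ beyond the spread between libraries. Lama3 was at 288, 351 and 270 CPM in PRC1 i2KO and 322 and 296 CPM in Control, with a log2 fold change of -0.03 ± 0.17 (interval -0.42 to 0.36, edgeR adjusted p = 0.973). Lamb3 was at 234, 339 and 192 CPM in PRC1 i2KO and 271 and 257 CPM in Control (log2 fold change -0.05 ± 0.24, interval -0.58 to 0.49). For both chains PRC1 i2KO 2 was the highest PRC1 i2KO library and PRC1 i2KO 3 the lowest. The same libraries were the highest and lowest of their group for Itga3, and summed interfollicular epidermis markers, with 9687, 8554 and 7711 CPM in PRC1 i2KO 2, 1 and 3, followed this order, as did bulge markers, with 8012, 7565 and 6067 CPM. Control 2 and 3 had 6534 and 6995 CPM of the interfollicular markers and 8176 and 8243 CPM of the bulge markers, and their part in the laminin values was not tested. Krt5 and Krt14 gave most of the interfollicular sum and Krt15 most of the bulge sum. Krt5 did not follow the order of the sums, at 6041, 5308 and 5077 CPM in PRC1 i2KO 1, 2 and 3.

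The chains of the other epithelial laminins had positive log2 fold changes in CPM that did not pass the test. Lama5, the α chain of laminin-511, was at 118, 119 and 120 CPM in PRC1 i2KO and 115 and 83.1 CPM in Control, a log2 fold change of 0.26 ± 0.20 (interval -0.19 to 0.71, edgeR adjusted p = 0.694). The gap between the lowest PRC1 i2KO library and Control 2 was small for Lama5, and Control 3, the library with the fewest reads, lay apart. Its partner Lamc1 was at 94.1, 70.3 and 68.1 CPM in PRC1 i2KO and 74.0 and 61.5 CPM in Control (log2 fold change 0.19 ± 0.22). Lamb1 was at 17.8, 17.8 and 14.9 CPM in PRC1 i2KO and 15.2 and 9.20 CPM in Control, and Lamb2 at 32.9, 47.8 and 45.4 CPM in PRC1 i2KO and 41.6 and 26.0 CPM in Control. In TPM Lamb2 was instead lower in every PRC1 i2KO library, at 7.79, 9.78 and 9.56 TPM against 11.5 and 19.9 TPM. On the log2(TPM + 1) scale the fold changes were -0.69 for Lamb2 and -0.06 for Lamc1. Lama4, a chain of endothelial and mesenchymal basement membranes, was at 9.26, 5.03 and 8.32 CPM in PRC1 i2KO and 2.56 and 6.03 CPM in Control (log2 fold change 0.83 ± 0.58, edgeR adjusted p = 0.665). In bulk RNA fewer cells of a type and less RNA per cell cannot be told apart, and the summed fibroblast markers given above were higher in every PRC1 i2KO library, as were 12 endothelial, mural and muscle markers at 38.1 to 46.2 CPM against 30.6 and 25.7 CPM in Control. Their part in the Lama4 values was not tested.

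Several scarce members differed widely between libraries of the same group. Itga8, an RGD-binding α subunit known from mesenchyme and smooth muscle, had 168, 1 and 70 counts in PRC1 i2KO 1, 2 and 3 against 2 and 5 counts in Control. PRC1 i2KO 1 and 3 were thus above both Control libraries and PRC1 i2KO 2 was not, and Itga8 did not pass the test (edgeR adjusted p = 0.488; log2 fold change 4.15 ± 1.96). Without PRC1 i2KO 2 its log2 fold change was 4.76 (edgeR adjusted p = 0.197), and without PRC1 i2KO 1 it was 2.52 (edgeR adjusted p = 0.758). PRC1 i2KO 1 and 3 were likewise the libraries with the higher sum of mitosis genes, and the link to Itga8 was not tested. Itgb3, the β subunit of platelet and osteoclast receptors, followed the same libraries, with 83, 15 and 38 counts in PRC1 i2KO against 21 and 4 in Control. Itga11, a collagen receptor subunit of fibroblasts, had 0, 46 and 11 counts in PRC1 i2KO and 1 and 0 in Control, with 46 of its 57 PRC1 i2KO counts in PRC1 i2KO 2. The ratio of counts pooled over each group was 36.1 after scaling for depth, with a 95% counting interval of 6.22 to 1449 that leaves out the spread between libraries. The edgeR interval, which includes that spread, ran from 0.840-fold to 785-fold (adjusted p = 0.483). Lama1 and Lama2 were highest in PRC1 i2KO 2, with 167 and 30 counts. Control 2 and 3 had 65 and 2 counts of Lama1 and 3 and 6 counts of Lama2. Scaled for depth, Lama2 was at 0.677 CPM in PRC1 i2KO 2 and 0.0609 and 0.476 CPM in Control 2 and 3. Lama1 was at 3.77 CPM against 1.32 and 0.159 CPM in the same libraries.

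Integrins of leukocytes and platelets were scarce, and some had no reads in several libraries. Itgb2, the β subunit of all leukocyte β2 integrins, had 20 counts in PRC1 i2KO 1 and 0 in the other 4 libraries. Itgax, its partner on dendritic cells, had 18 counts in PRC1 i2KO 1 and 0 elsewhere. The 11 immune markers summed to 16.2, 12.2 and 21.4 CPM in PRC1 i2KO 1, 2 and 3 and 8.2 and 10.7 CPM in Control 2 and 3, and their part in these counts was not tested. Itgae, the partner of β7 on intraepithelial T cells, had 5 counts in PRC1 i2KO 3 alone, where Itgb7 had 31. Itgal had 0 to 2 counts in PRC1 i2KO against 12 and 8 in Control, and Itgad 0 to 4 counts against 14 and 1; neither was tested, and in CPM the groups overlapped for Itgad. Itgam, with 19, 179 and 32 counts in PRC1 i2KO and 61 and 38 in Control, was the best counted of them, at 0.871, 4.04 and 1.01 CPM against 1.24 and 3.01 CPM (log2 fold change -0.08 ± 0.92). Itga2b, the α subunit of the platelet fibrinogen receptor, had 21, 6 and 9 counts in PRC1 i2KO and 21 and 23 in Control. In CPM it was at 0.962, 0.135 and 0.285 against 0.426 and 1.82 (log2 fold change -1.28 ± 1.205, edgeR adjusted p = 0.763). The 7 untested members were Itgad, Itgae, Itgal, Itgax, Itgb2, Itgb7 and Lamc3, the last with 11 counts in Control 2 alone. A count of 0 allows up to 3 counts, or 0.0676 to 0.137 CPM in PRC1 i2KO and 0.0608 and 0.238 CPM in Control.

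**Figure D3:**
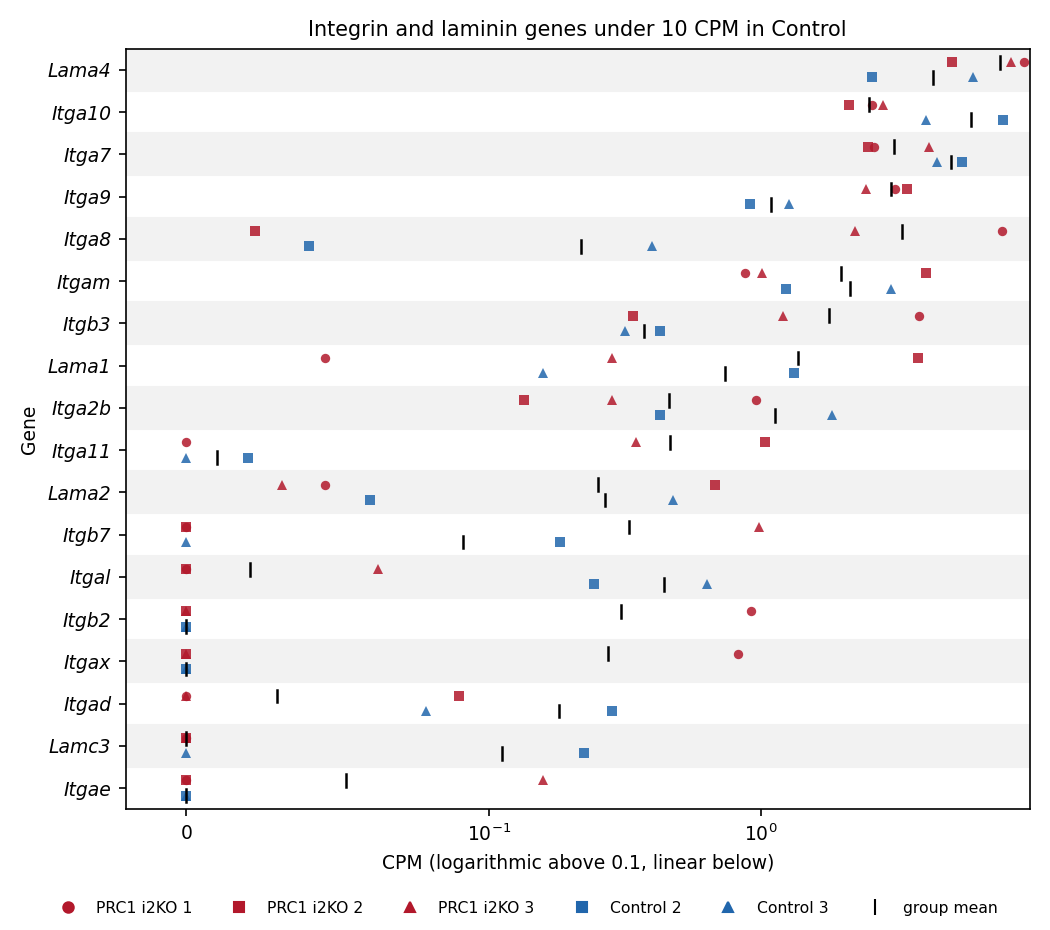
CPM of the 18 members with a Control mean under 10 CPM, with 1 point per library (red, PRC1 i2KO; blue, Control) and a black bar for each group's mean; the axis is logarithmic above 0.1 CPM and linear below. Itga8 is high in PRC1 i2KO 1 and 3 and not in PRC1 i2KO 2, and Itgb2 and Itgax have reads in PRC1 i2KO 1 alone.

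Promoters of 23 members were found among the RefSeq windows of assembly GRCm38.p6, which run from 250 bases before to 50 after a gene's start. The other 14 members, Itga6, Itgb4 and Lama3 among them, were not matched. PRC1 is known to gather at CpG-rich promoters, so CG dinucleotides were counted. Taking each gene's window with most CG, the median was 12 CG for members and 8 for all 27025 genes with a window. The 14 members of at least 10 CPM in Control had 4 to 27 CG (median 13), the 9 below that level 1 to 23 (median 6), and the 4 leukocyte or platelet integrins 5 or 6. Windows of 3 members are printed to show this range, with each CG in capitals: Itga8, CG-rich yet scarce in Control, Itgb1, CG-rich and abundant, and Itgax, CG-poor and at 0 in Control. They lie at chr2:12301895-12302194 (minus strand), chr8:128685404-128685703 (plus strand) and chr7:128129300-128129599 (plus strand).
Itga8: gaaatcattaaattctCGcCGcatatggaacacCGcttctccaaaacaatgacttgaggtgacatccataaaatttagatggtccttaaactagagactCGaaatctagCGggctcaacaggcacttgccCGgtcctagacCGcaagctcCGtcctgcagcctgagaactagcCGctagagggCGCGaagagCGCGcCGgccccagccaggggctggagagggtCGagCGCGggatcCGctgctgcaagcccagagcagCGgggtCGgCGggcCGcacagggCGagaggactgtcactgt
Itgb1: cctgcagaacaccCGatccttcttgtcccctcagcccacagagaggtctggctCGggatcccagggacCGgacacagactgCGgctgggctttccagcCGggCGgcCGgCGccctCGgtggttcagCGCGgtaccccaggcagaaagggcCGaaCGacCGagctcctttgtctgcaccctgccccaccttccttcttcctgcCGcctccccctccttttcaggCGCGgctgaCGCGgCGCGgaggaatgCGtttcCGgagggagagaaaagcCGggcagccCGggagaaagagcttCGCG
Itgax: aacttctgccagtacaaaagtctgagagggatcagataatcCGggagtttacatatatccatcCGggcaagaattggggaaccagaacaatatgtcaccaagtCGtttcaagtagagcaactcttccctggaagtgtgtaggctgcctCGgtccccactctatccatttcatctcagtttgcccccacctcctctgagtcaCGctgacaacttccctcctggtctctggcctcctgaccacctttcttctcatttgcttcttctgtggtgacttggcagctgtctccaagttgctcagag
The windows hold 23, 27 and 5 CG, counts that 21.5%, 15.5% and 62.0% of all 32851 windows reach. These are features of the sequence, and occupancy by PRC1 was not measured in these libraries. Among CG-rich members, Itgav, Itga3 and Lama5 with 24 CG each had log2 fold changes of -0.35, -0.08 and 0.26, and Itgb1 one of -0.07. Itgb5 with 20 CG and Lamb1 with 18 had 0.53 and 0.46. Itga8 and Itga11, the latter with 16 CG, had 4.15 and 4.68, values that rest on few Control counts. None of these passed the threshold.

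Expected count over TPM gives the transcript length that the authors' estimation assigned to a gene in a library, and it moved for a few members. The ratio was divided by its median over genes in the same library, so 1 stands for the library's median gene, and 22 members had the 50 counts per library required. Lama5 was at 0.723, 0.654 and 0.738 in PRC1 i2KO and 1.09 and 0.988 in Control, so the groups did not overlap and the ratio of group means was 0.677. Annotated Lama5 transcripts run from 451 to 11388 bases in GENCODE M21. Lamb1 was at 1.10, 0.964 and 1.46 in PRC1 i2KO and 1.80 and 2.03 in Control (ratio 0.612), and Itgb5 at 0.376, 0.399 and 0.445 against 0.493 and 0.567 (ratio 0.767). On the log2(TPM + 1) scale the fold changes were 0.49 for Lama5, 0.68 for Lamb1 and 0.53 for Itgb5, against 0.26, 0.46 and 0.53 in the edgeR fit to counts. Over 10010 protein-coding genes the ratio of group means lay between 0.787 and 1.33 for the central range from the 5th to the 95th percentile, and Lamb1, Lama4, Lama5, Itgb5 and Itga10 lay below it. The lengths of Lama4 overlapped between the groups. On the other side, Lamb2 lay above the range, with a ratio of 1.37 and lengths that overlapped between the groups.

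Itga6 and Lama3 showed little spread in assigned length. Itga6 was at 1.16 to 1.21 in PRC1 i2KO and 1.22 and 1.195 in Control, and Lama3 at 2.31 to 2.42 against 2.47 and 2.44. Itga4 was the single member with a longer length in every PRC1 i2KO library, at 3.86 to 3.96 against 3.65 and 3.33, and 9 of the 22 were shorter in every one (Lama5, Lamb1, Itgb5, Itga1, Itga2, Itga7, Itga10, Itgb1 and Lama3). Those orders were shown by 8.57% and 30.5% of protein-coding genes. Scaled instead by 690 genes with a single annotated transcript, a choice made after seeing the data, 2 members were longer and 6 shorter, against 20.4% and 14.4% of protein-coding genes, and Lama5, Lamb1 and Itgb5 were among the shorter under both scalings. Lamb3 varied within PRC1 i2KO, at 1.54, 1.52 and 1.09, against 1.05 and 1.14 in Control. Transcripts were not measured one by one, and no test was made of these lengths.

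**Figure D4:**
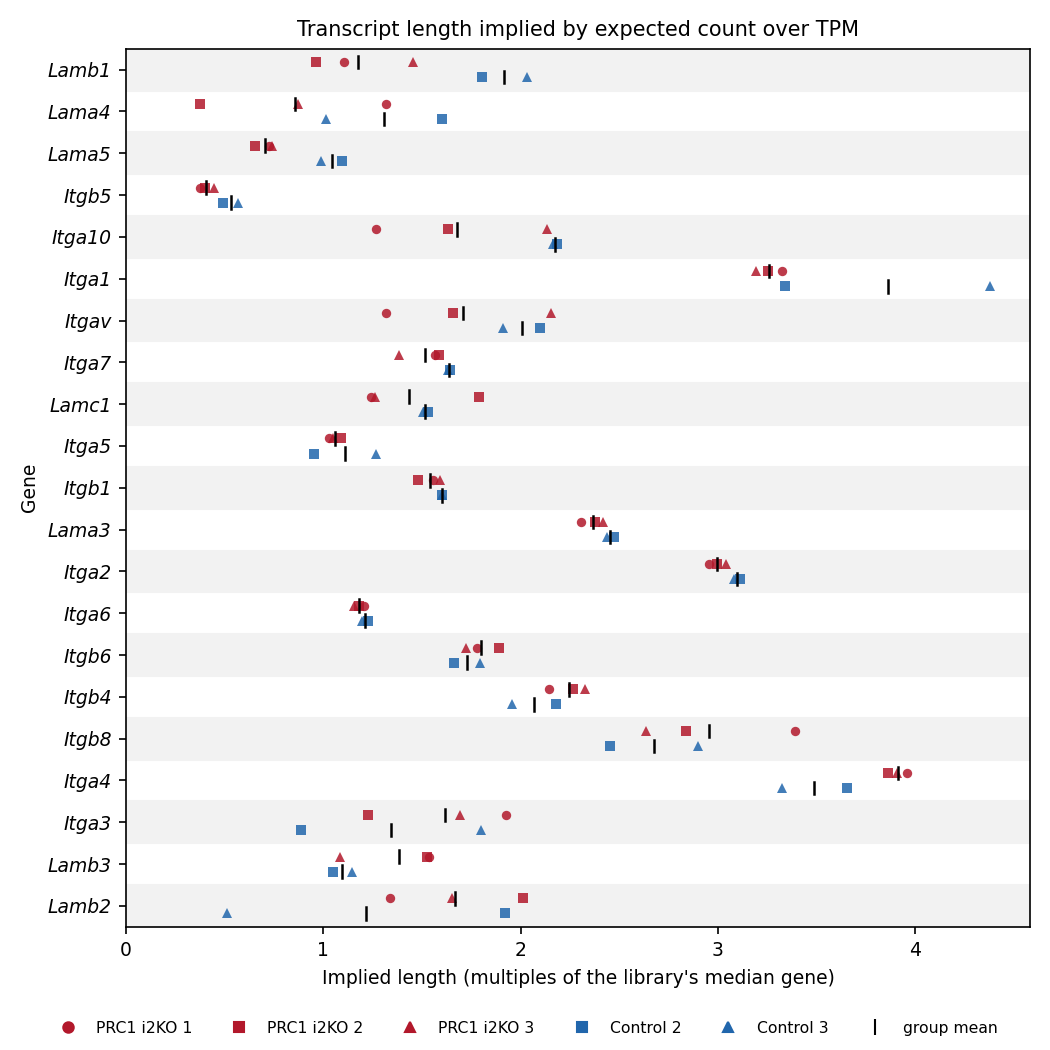
Transcript length implied by expected count over TPM for 21 members with at least 50 counts in every library, in multiples of the library's median gene and ordered from the lowest ratio of group means at the top; points are libraries (red, PRC1 i2KO; blue, Control) and black bars group means. Lamb1, Lama5 and Itgb5 have all PRC1 i2KO points left of both Control points, while Itga6 and Lama3 hardly spread.

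Neighbouring parts of the adhesion machinery were read from lists drawn up from textbook knowledge. Over all tested genes, 7.43% were higher and 3.51% lower at an unadjusted p under 0.05, with a median log2 fold change of 0.01. DESeq2 called 3.57% of all genes higher and 0.786% lower. Of 6 hemidesmosome genes, the members Itga6 and Itgb4 among them, 0 passed as higher or lower (unadjusted, 1 and 0, and by DESeq2, 0 and 0). Their median log2 fold change was -0.11. The tetraspanin Cd151, a partner of laminin-binding integrins, had the smallest p there, at 76.6, 76.2 and 74.2 CPM in PRC1 i2KO and 46.9 and 59.5 CPM in Control (log2 fold change 0.51 ± 0.20, edgeR adjusted p = 0.409). Of 30 integrin adaptors such as talins and kindlins 0 passed (unadjusted, 2 and 1; DESeq2, 0 and 0; median 0.01), with Parva, which links integrins to actin, at 61.6, 43.8 and 41.2 CPM in PRC1 i2KO and 26.9 and 29.8 CPM in Control (edgeR adjusted p = 0.321). Of 15 non-integrin laminin receptors and tetraspanins, Cd151 again among them, 0 passed by edgeR (unadjusted, 3 and 2, median 0.18). DESeq2 called 2 of them higher. Rpsa, a ribosomal protein also described as a laminin receptor, was at 590, 450 and 483 CPM in PRC1 i2KO and 253 and 321 CPM in Control (log2 fold change 0.83 ± 0.19, edgeR adjusted p = 0.177).

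Of 19 tested basement membrane genes other than laminins, Smoc2 rose and 0 fell by edgeR (unadjusted, 4 and 1, median -0.06). DESeq2 called 3 higher, Smoc2, Fras1 and Ntn4. Fras1 and Ntn4 had edgeR adjusted p = 0.189 and 0.206, and both were higher in every PRC1 i2KO library. Smoc2, a secreted calcium-binding matrix protein, was at 69.3, 50.3 and 71.8 CPM in PRC1 i2KO against 7.53 and 11.4 CPM in Control, a log2 fold change of 2.76 ± 0.31 (edgeR adjusted p = 0.0176). Its call was lost without Control 2 (adjusted p = 0.271), Control 3 (0.119), PRC1 i2KO 1 (0.0913) or PRC1 i2KO 3 (0.0602) by edgeR. Of 22 tested other integrin ligands 0 passed (unadjusted, 4 and 2; median 0.58; DESeq2, 2 higher). Icam1, the ligand of leukocyte β2 integrins, was at 56.7, 16.7 and 50.4 CPM in PRC1 i2KO and 9.85 and 11.7 CPM in Control (log2 fold change 1.94 ± 0.50, edgeR adjusted p = 0.209), with PRC1 i2KO 2 the lowest of its group. Whether these lists differ from the laminins was not tested.

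Marker lists were read in the same way, and 0 of their genes passed in any by edgeR. The shares over all tested genes were again 7.43% higher and 3.51% lower unadjusted, and 3.57% and 0.786% by DESeq2. Npnt is on both the bulge and the basement membrane list. Bulge markers had a median log2 fold change of -0.37 over 12 genes (unadjusted, 0 higher and 6 lower; DESeq2, 0 and 2), led by the BMP antagonist Grem1 at 630, 580 and 485 CPM in PRC1 i2KO and 956 and 890 CPM in Control (edgeR adjusted p = 0.172). Interfollicular epidermis markers had a median of 0.92 over 13 genes (unadjusted, 6 and 0; DESeq2, 3 and 0), led by Ly6d at 39.6, 46.1 and 22.8 CPM against 11.2 and 12.5 CPM (edgeR adjusted p = 0.164). Fibroblast markers had a median of 1.93 over 7 tested genes (unadjusted, 4 and 0; DESeq2, 3 and 0), led by Pdgfra at 32.5, 25.4 and 16.0 CPM against 3.37 and 2.22 CPM (edgeR adjusted p = 0.0502). Mitosis genes had a median of 2.92 over 20 genes (unadjusted, 13 and 0; DESeq2, 7 and 0), led by Foxm1 at 16.8, 6.97 and 11.6 CPM against 1.02 and 1.75 CPM (edgeR adjusted p = 0.134). Immune, endothelial and mural, and Schwann and melanocyte markers had medians of 0.79, 0.13 and -0.07, with H2-Aa, Notch3 and Mitf at the smallest p. Unadjusted, these 3 lists had 1, 1 and 0 genes higher and 0, 1 and 1 lower, and by DESeq2 1, 1 and 0 higher and 0 lower in each.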

How the data were processed

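Polyadenylated RNA from 5 libraries of sorted cells (3 PRC1 i2KO, 2 Control) is held in 1 table. STAR 2.7.9a, RSEM 1.3.3, DESeq2 1.38.2 and build mm39 appear in the submitters' processing notes, with no order given. The authors deposited expected counts, of which 60.2% were not whole, and these were rounded before testing. The authors also deposited TPM, which divides by transcript length and a library total. No source used here says whether reads were counted by strand. By GENCODE M21, the spans of 14 members (Itga6, Lama3 and Lamb3 among them) overlap a same-strand gene, and those of 6 more an opposite-strand gene alone. Spans include introns and exons were not compared, so reads may be shared only where exons coincide.

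edgeR 4.0.16 (R 4.3.3) was run on the 22181 of 30840 features that filterByExpr kept, with TMM factors, a quasi-likelihood F test on group, and Benjamini-Hochberg adjustment over all of them at 0.05. Each log2 fold change is PRC1 i2KO over Control, and its SE is its size divided by the root of F. A single count was worth 0.0225 to 0.0458 CPM in PRC1 i2KO and 0.0203 and 0.0793 CPM in Control. Count intervals and the floor of 3 counts cover counting error only. Alternatives used limma 3.58.1 and DESeq2 1.42.0, and pseudocounts of 1 and 0.1 on TPM. The edgeR steps were tested on simulated counts. The labels name no individual animals, and a p-value here reflects variation among libraries that may be technical.

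Members and lists were chosen with earlier results of these data known. Values in every library were to be given for members averaging at least 20 TPM or with an unadjusted p under 0.05, and outside the members for the smallest p of each list; the leukocyte integrins were to be given as a group by range. Other members were described after their values were seen. Counts over the members include 1 gene that is not reported here.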

Additional observations from a re-analysis of the deposited data

How the results depend on the processing

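Across 14 alternatives, 0 integrin or laminin genes passed the threshold in either direction. Those alternatives left out each library in turn, changed the normalization, test, unit, filter or gene set, or added a replicate block. For 23 members followed through them, 319 values were obtained, none past the threshold, and 25 had the opposite sign to the value in the report. The median log2 fold change of the members was 0.02, it ranged from -0.13 to 0.17 on leaving out single libraries, but -0.31 on log2(TPM + 1) and -0.40 on log2(TPM + 0.1), where the median of all genes is also below 0. Over all genes 28 were higher and 0 lower. These counts were 754 and 166 by DESeq2, 4 and 0 by limma-voom, 2 and 1 on log2(TPM + 1), 7 and 5 on log2(TPM + 0.1), 140 and 12 with no filter, and 54 and 6 among protein-coding genes. Leaving out 1 library gave between 4 and 39 higher and between 0 and 4 lower. The cause was not tested.

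With the replicate number of the titles as a block the counts were 140 higher and 25 lower, and with that of the descriptions 10 and 0. No member was called under either block. The numbers share no stated litter or day. Deviations of same-numbered libraries from their group means correlated at 0.065 and 0.041 by title, and at -0.024 and -0.065 by description. With 2 Control libraries the Control deviations mirror each other, so these values cannot tell whether equal numbers mark a shared litter or day. Smoc2 was called in 6 of the alternatives and, besides those named in the report, missed the threshold with limma-voom (adjusted p = 0.0501), on log2(TPM + 1) (0.319), on log2(TPM + 0.1) (0.314) and with the block by description (0.0826). With 2 Control libraries, 1 of them of 11626006 counts, even changes estimated at more than 2-fold in scarce members were not resolved. In the main edgeR fit Itga9 was at 2.76-fold (interval 0.891 to 8.54) and Itgb3 at 4.66-fold (0.714 to 30.4). Itga10, on the lower side, was at 0.421-fold (0.169 to 1.05).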

Other observations

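Pairs of members were compared within libraries after their values were seen, so these ratios are values without a test. The Itgb5 to Itgb6 ratio in CPM, which weighs both αv partners in the same library, was 0.466, 0.361 and 0.477 in PRC1 i2KO 1, 2 and 3 against 0.214 and 0.265 in Control 2 and 3. In TPM it was 2.20, 1.71 and 1.84 against 0.721 and 0.838, so that on this scale Itgb6 was the higher of the pair in Control and Itgb5 in PRC1 i2KO, while in CPM Itgb6 was the higher in all 5 libraries. The Lama5 to Lama3 ratio in CPM was 0.408, 0.339 and 0.444 in PRC1 i2KO and 0.356 and 0.280 in Control, which overlap. In TPM it was 1.302, 1.23 and 1.45 against 0.804 and 0.691, with no overlap. The assigned lengths of Itgb5 and Lama5 were shorter in every PRC1 i2KO library, and they enter the TPM ratios and not the CPM ratios.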
